A study of Homo sapiens with 6 samples.

Results

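A set of 10 kinase genes of the Src, focal adhesion and p21-activated families were followed in pancreatic cancer cells sorted on L1CAM: FYN, SRC, YES1 and LYN of the Src family, PTK2 (focal adhesion kinase, FAK), and PAK1, PAK2, PAK3, PAK4 and PAK6. The members were chosen by symbol as members of these families, and all 10 were among the 19469 genes of the deposited table. The cells were L3.6pl, an established human line of pancreatic ductal adenocarcinoma that the sample titles name, although the cell line label reads L6.6pl and the disease label names an adenosquamous carcinoma. They were kept in serum-containing medium with no treatment and separated by flow cytometry, with dead cells left out, into L1CAM_POSITIVE (L1high) and L1CAM_NEGATIVE (L1low) cells. RNA was sequenced in 3 libraries per group, and both groups are this 1 line, with no genetic change named in the labels. No label says that the libraries of a group came from separate cultures or sorts, so the p-values measure the spread between these libraries, which may be technical.

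Total counts ran from 16334610 to 21064685 per library. L1CAM stood at 84.0, 69.8 and 89.5 CPM (counts scaled to a common library total) in the L1high libraries and at 17.7, 23.7 and 19.99 in the L1low libraries, so the sorting marker separated the groups in every library. Of 8 ductal epithelial markers all 8 were in the table, with summed levels of 4354 to 4914 CPM in L1high and 4901 to 5256 in L1low. SOX9 and EPCAM were called lower and KRT19 higher in L1low cells. Of 12 neural markers 4 were in the table (summed level 161 to 172 CPM in L1high and 185 to 193 in L1low, with ENO2 called higher and NCAM1, SYP and CHGA absent), and of 10 leukocyte markers 2 (162 to 170 CPM over all libraries, with PTPRC absent). Of 9 fibroblast markers 3 were in the table, at 86.7 to 98.5 CPM in L1high and 140 to 160 in L1low. LUM made up most of that sum and was the 1 fibroblast marker called, while PDGFRA, PDGFRB, THY1, FAP and DCN were absent. The part of these markers in the differences given here was not tested.

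Src family kinases are tyrosine kinases anchored to the inner face of the plasma membrane, where they pass on signals from integrins, growth factor receptors and adhesion molecules. The kinase CSK holds them inactive by phosphorylating their tail. FAK is recruited to clustered integrins, binds Src and phosphorylates scaffold proteins such as paxillin and p130Cas. The p21-activated kinases (PAKs) are serine and threonine kinases. Those of group I (PAK1, PAK2 and PAK3) are opened by the small GTPases RAC and CDC42, and PAK4 and PAK6 belong to group II. PAK1 and PAK2 are made in many tissues and PAK3 mainly in neurons. In nerve cells, FYN and SRC are known partners of L1CAM signalling. A read count measures none of these activities.

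The kinases of a family are alike in sequence, so reads could in principle have been given to the wrong member. The stretches of 60 coding bases in which PAK3 was most like PAK1 and PAK2, and FYN most like YES1 and SRC, are shown to make this visible. They come from the canonical transcripts of GENCODE release 44 on GRCh38 and lie each within 1 coding exon. Capitals mark bases that differ from PAK3 in the first 3 lines and from FYN in the last 3.
PAK3: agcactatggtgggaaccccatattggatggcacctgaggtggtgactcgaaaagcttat
PAK1: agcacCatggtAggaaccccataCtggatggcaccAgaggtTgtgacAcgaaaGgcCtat
PAK2: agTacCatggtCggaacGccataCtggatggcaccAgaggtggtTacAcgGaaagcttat
FYN: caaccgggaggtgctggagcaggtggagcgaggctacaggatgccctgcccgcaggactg
YES1: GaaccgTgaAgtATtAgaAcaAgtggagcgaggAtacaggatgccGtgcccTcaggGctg
SRC: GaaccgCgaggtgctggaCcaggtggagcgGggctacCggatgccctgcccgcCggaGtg
The PAK stretches lie at chrX:111196491-111196550 (plus strand), chr11:77336176-77336235 (minus) and chr3:196820418-196820477 (plus), and those of FYN, YES1 and SRC at chr6:111661881-111661940 (minus), chr18:724566-724625 (minus) and chr20:37403178-37403237 (plus). Even there, PAK1 differed from PAK3 at 8 and PAK2 at 9 of the 60 bases, and YES1 differed from FYN at 12 and SRC at 7. Over the whole canonical transcripts, no window of 50 bases of any of the 10 kinases occurred in a transcript of another of them. FYN, SRC, PTK2 and PAK4 shared no such window with any other gene, and PAK3 shared 84 of its 9077 windows (0.925%). The length of the reads is not given in the sources used here.

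Levels divided by the combined length of all annotated exons of each gene set the kinases in order (values are CPM per kilobase of exon, mean of 3 libraries). This length exceeds that of the canonical transcript by unlike amounts (13742 against 5136 bases for PTK2, 6270 against 6139 for PAK2). The order therefore depends on the length used. In L1high cells PAK2 (14.9 ± 2.19, SD, n = 3) and YES1 (13.9) were highest, followed by PAK1 (10.4), PTK2 (10.3) and PAK4 (10.03). LYN (5.97), SRC (5.12), PAK6 (3.41) and FYN (2.65) were lower, and PAK3 was lowest in 2 of the 3 libraries, with a range from 0.327 to 4.83. The ranges of PAK2 and YES1, of PAK1 and PTK2, of PTK2 and PAK4 and of FYN and PAK3 overlapped, while the other neighbours in that order did not. In L1low cells the order was PAK2 (15.7), YES1 (15.5), PTK2 (12.6), PAK1 (12.3), PAK4 (10.8), SRC (7.17), LYN (6.21), PAK6 (3.23), FYN (1.12) and PAK3 (0.416), with overlap between PAK2 and YES1, YES1 and PTK2, and PTK2 and PAK1. On this scale SRC stood below LYN in each L1high library and above it in each L1low library. In CPM, without division by length, SRC was above LYN in L1high replicate 1 (37.1 against 36.9) and replicate 3 (38.3 against 34.4). It was below LYN in L1high replicate 2 (34.4 against 39.2), so the change of place depends on the length used.

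**Figure D1:**
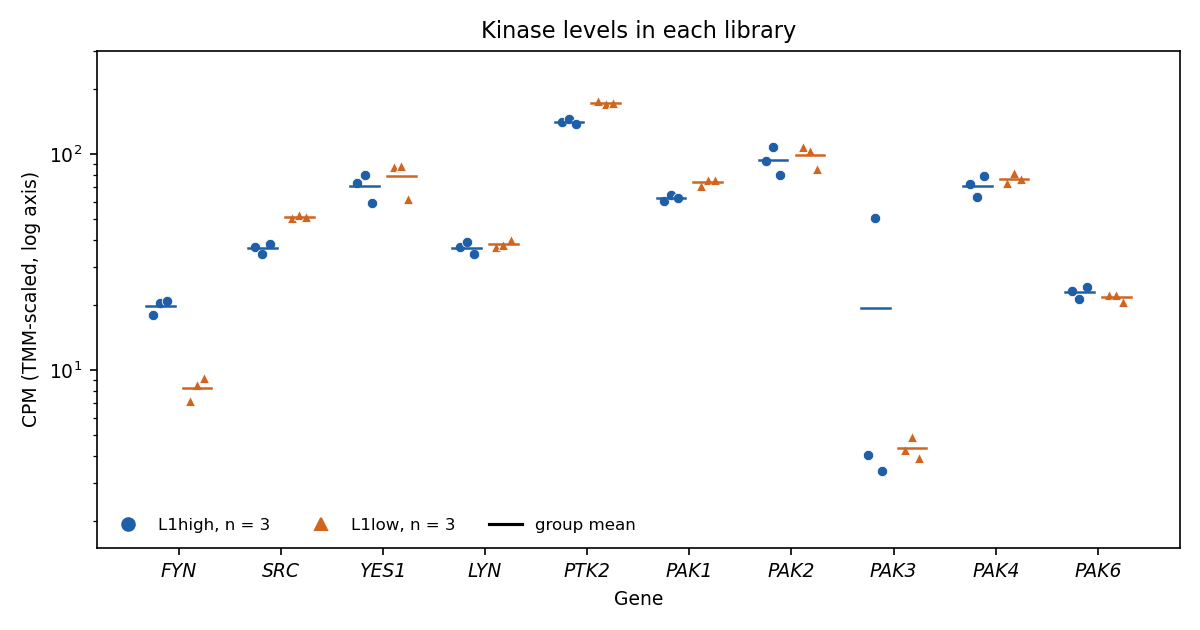
Level of each of the 10 kinases in every library, in CPM on a log axis, with 1 point per library and a line at the group mean. FYN is lower, and SRC and PTK2 are higher, in all 3 L1low libraries than in any L1high library, and PAK3 has a single high point, at 50.4 CPM in L1high replicate 2.

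The comparison of L1low with L1high cells asked which of these genes go with the amount of L1CAM on the cell. FYN fell, SRC and PTK2 rose, and the other 7 kinases missed the limit of 0.05 on the adjusted p (edgeR, quasi-likelihood). The 3 called members of 10 stand beside 1548 of all 19467 genes tested, or 7.95% (4.58% called higher and 3.37% called lower in L1low cells). In 4 members (FYN, SRC, PTK2 and PAK1) the ranges of the groups lay apart, as in 28.8% of all genes. Of the 10 log2 fold changes 7 were above and 3 below 0, with a median of 0.10, and the median over all genes was -0.0087. Over 5 libraries, without L1high replicate 3 as in the comparison table of the study, PAK3 was called as well, giving 4 members where 7.57% of all genes were called. Because the RNA came from whole sorted populations, fewer cells expressing a gene and less of its RNA per cell cannot be told apart.

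FYN (ENSG00000010810, chr6:111660332-111873452, minus strand) encodes a Src family kinase with roles in myelin, synapses and T cells as well as in cell adhesion. It stood at 17.9, 20.3 and 20.8 CPM in the L1high libraries and at 7.21, 8.47 and 9.15 in the L1low libraries. All L1low libraries lay below all L1high libraries. The counts behind them were 379, 417 and 341 in L1high and 131, 152 and 162 in L1low cells. Its mean fell from 19.6 ± 1.56 to 8.28 ± 0.983 CPM (SD, n = 3 each), and its log2 fold change was -1.25 (SE 0.12, 95% interval -1.51 to -0.98, adjusted p = 8.3e-05). By p FYN ranked 36 and by size 50 among the 657 genes called lower. Over the alternative settings its log2 fold change stayed between -1.31 and -1.16 and its adjusted p between 3.0e-17 and 0.0016. FYN and PAK3 are among the genes the study drew with its pathway terms from these libraries, so their direction here is not independent evidence. Of 10 genes in the table within 500 kb of FYN, none was called, beside 7.95% of all genes. Their log2 fold changes ran from -0.35 (RPSAP45) to 0.25 (FAM229B), with TRAF3IP2 (0.21) reaching the lowest adjusted p, 0.22. The genes whose log2 levels over the 6 libraries, each centred on its own mean, lay nearest to those of FYN were KRT4 (Euclidean distance 0.23), MEFV (0.24), SLCO3A1 (0.27), SPINK6 (0.32) and MEOX1 (0.33).

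SRC (ENSG00000197122, chr20:37344685-37406050, plus strand), the founding member of the family, moved the other way. Its levels were 37.1, 34.4 and 38.3 CPM in the L1high and 50.4, 52.2 and 51.1 in the L1low libraries. The groups did not overlap, and the L1low libraries lay close together. From 36.6 ± 2.00 to 51.2 ± 0.897 CPM (SD, n = 3 each), the log2 fold change was 0.49 (SE 0.08, adjusted p = 0.0028), and over the alternatives it ran from 0.44 to 0.53 with adjusted p from 7.9e-06 to 0.029. The change was modest in size, ranking 489 among the 891 genes called higher.

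YES1 and LYN, the other Src family members of the group, were not called. YES1 (ENSG00000176105, chr18:721588-812546, minus strand), made in most tissues, stood at 73.3, 79.8 and 59.3 CPM in L1high and at 86.8, 88.2 and 61.9 in L1low cells. Replicate 3 was the lowest of each group, and the groups overlapped. The log2 fold change of YES1 was 0.16 (95% interval -0.14 to 0.46, adjusted p = 0.54). Its processed pseudogene YES1P1 is counted in the same table and had a log2 fold change of -0.15 (adjusted p = 0.62), and the antisense gene ENSG00000266171 overlaps it. Of the windows of YES1, 7.95% occurred in other genes, so its level is the less certain one. LYN (ENSG00000254087), best known from blood cells but also made in epithelia, stood at 36.9, 39.2 and 34.4 CPM in L1high and at 37.0, 37.7 and 40.1 in L1low cells. These ranges overlapped in part, and the log2 fold change was 0.05 (95% interval -0.13 to 0.24, adjusted p = 0.75).

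The balance within the Src family differed accordingly. Shares of a length-scaled level depend on the exon length used, as the order above does. Of the summed length-scaled level of the 4 genes, FYN made up 9.65% ± 1.26 in L1high and 3.76% ± 0.731 in L1low cells (SD, n = 3 each). SRC made up 18.7% ± 2.42 and 24.0% ± 2.11, and YES1 held 50.1% ± 3.72 and 51.3% ± 5.57. Within each library the log2 ratio of FYN to SRC, from CPM, was -1.05, -0.76 and -0.88 in L1high and -2.80, -2.62 and -2.48 in L1low cells. No L1low library came near an L1high library in this ratio, and the means differed by -1.74. In all, 5 such ratios were compared, and an exact two-sided permutation test of 3 against 3 libraries can give no p below 0.10. It gave 0.10 for FYN to SRC, FYN to YES1 (difference -1.40) and FYN to LYN (-1.31), or 0.125 after Benjamini-Hochberg adjustment over the 5 ratios. FYN was lower and SRC higher in every L1low than in any L1high library. The FYN to SRC ratio therefore had to reach this lowest p and is no further evidence. The ratios to YES1 and LYN also hold the fall of FYN already given.

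**Figure D2:**
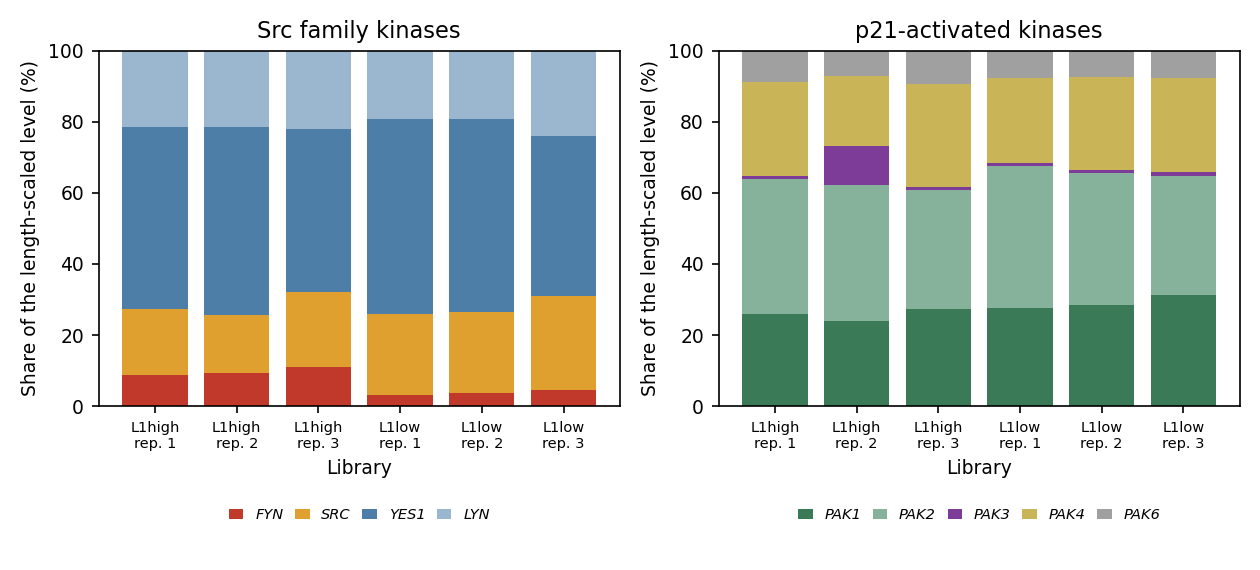
Share of each gene in the summed length-scaled level (CPM per kilobase of exon) of its family, in percent, with 1 stacked bar per library, for the 4 Src family kinases (left) and the 5 PAKs (right). The FYN share is 8.62% to 11.05% in L1high and 3.13% to 4.56% in L1low libraries, and the PAK3 share is 10.8% in L1high replicate 2 and at most 1.06% in the other 5.

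PTK2 (ENSG00000169398, chr8:140657900-141002216, minus strand) had the most counts of the 10 kinases, 2262 to 3192 per library. It stood at 139.8, 146 and 138 CPM in L1high and at 176, 171 and 172 in L1low cells. The ranges lay apart and each was narrow. The log2 fold change was 0.29 (SE 0.06, 95% interval 0.16 to 0.43, adjusted p = 0.013), the smallest of the 3 called. PTK2 was not called without L1high replicate 1 (0.29, adjusted p = 0.091) or without L1low replicate 2 (0.30, adjusted p = 0.071). Its close relative PTK2B (PYK2), a calcium-responsive kinase, rose further. PTK2B went from 24.9, 17.8 and 24.9 CPM in L1high to 40.2, 37.1 and 42.9 in L1low libraries, with a log2 fold change of 0.83 (SE 0.13, adjusted p = 0.0020). The log2 ratio of PTK2B to PTK2 was higher by 0.55 in L1low cells and did not overlap between the groups (exact two-sided permutation p = 0.10, the lowest possible, and 0.125 adjusted over the 5 ratios).

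**Figure D3:**
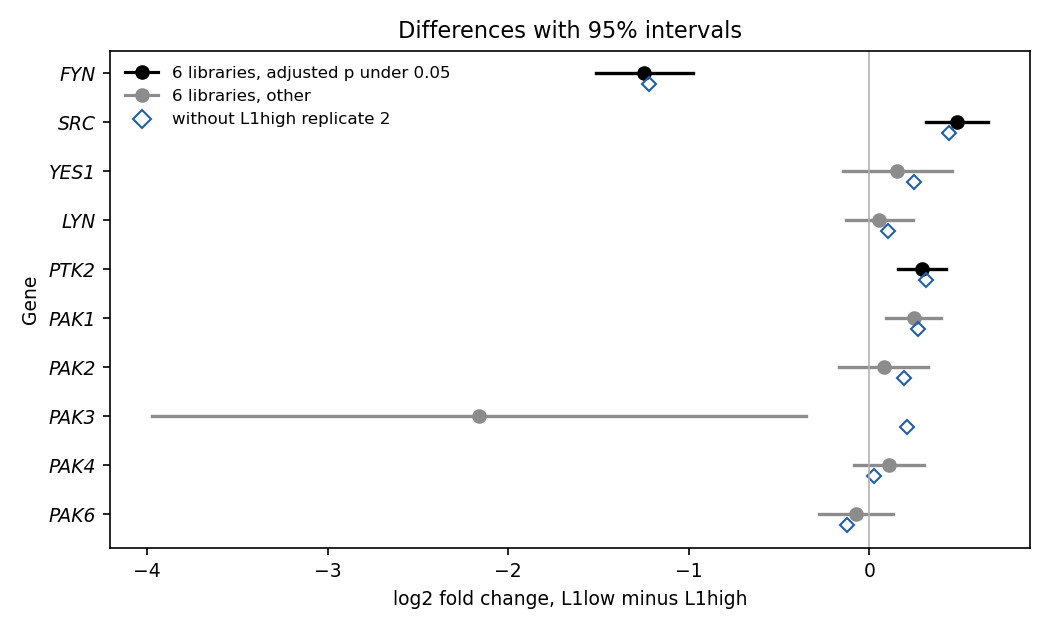
Log2 fold change of each of the 10 kinases, L1low minus L1high, over all 6 libraries with its 95% interval from edgeR. Open diamonds give the value without L1high replicate 2, with no interval drawn. FYN lies at -1.25 and SRC at 0.49 over all libraries, and PAK3 lies at -2.16 with them and at 0.21 without L1high replicate 2.

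Among the PAKs, none was called over all 6 libraries by the quasi-likelihood test of edgeR with the group as its only term. In that test 2 PAKs (PAK1 and PAK3) had an unadjusted p under 0.05, as had 4541 of all 19467 genes tested. The exact test of edgeR called 1 of the PAKs, PAK1. It called 2075 of all genes, against 1548 by the quasi-likelihood test above. DESeq2 called none of PAK1, PAK2, PAK4 and PAK6. It gave PAK3 no adjusted p, so PAK3 could not be called there. With the replicate number as a block, the quasi-likelihood test called PAK1 (adjusted p = 0.037) and PAK3 (adjusted p = 0.049). That setting called 2363 of all genes. Whether the replicate numbers pair the libraries was not settled. PAK1 (ENSG00000149269, chr11:77322017-77474635, minus strand), a kinase of lamellipodia and cell movement, stood at 60.3, 64.7 and 62.6 CPM in L1high and at 71.2, 75.5 and 75.7 in L1low cells. The groups did not overlap. Its log2 fold change of 0.25 (SE 0.07, 95% interval 0.09 to 0.40) had an adjusted p of 0.054, and without L1high replicate 2 it was 0.27 with an adjusted p of 0.046. PAK1 was then the 4th member called, where 6.56% of all genes were called. Of the windows of PAK1, 14.5% occurred in the antisense gene ENSG00000268635.

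PAK2 (ENSG00000180370, chr3:196739857-196832647, plus strand), the most widely made group I kinase, stood at 92.4, 107 and 79.9 CPM in L1high and at 108, 103 and 85.4 in L1low cells. As for YES1, replicate 3 was the lowest of each group, and the groups overlapped. The log2 fold change of PAK2 was 0.08 (95% interval -0.17 to 0.33, adjusted p = 0.72), and without L1high replicate 3 it was -0.0085. The log2 ratio of PAK1 to PAK2 was higher by 0.16 in L1low cells, which was within the spread (exact two-sided permutation p = 0.40).

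The group II kinases showed no call either. PAK4 (ENSG00000130669, chr19:39125770-39182816, plus strand), known to be amplified in some pancreatic cancers, stood at 72.1, 62.9 and 78.6 CPM in L1high and at 73.0, 81.2 and 76.2 in L1low cells. These overlapped, with a log2 fold change of 0.11 (95% interval -0.08 to 0.30, adjusted p = 0.50). PAK6 (ENSG00000137843, chr15:40217428-40277487, plus strand), first known as a partner of the androgen receptor, stood at 23.1, 21.2 and 24.1 CPM in L1high and at 22.1, 22.2 and 20.7 in L1low cells, again with overlap (log2 fold change -0.07, 95% interval -0.28 to 0.13, adjusted p = 0.68). PAK6 overlaps BUB1B and the readthrough gene BUB1B-PAK6 on the same strand, and 211 of its 4330 windows occurred in BUB1B-PAK6, so reads could have been split between them. BUB1B itself, a mitotic checkpoint kinase, was called lower (log2 fold change -0.26, adjusted p = 0.025).

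PAK3 (ENSG00000077264, chrX:110944285-111227361, plus strand) stood apart from the rest, since 1 library set its level. It was at 4.05, 50.4 and 3.41 CPM in the L1high and at 4.24, 4.90 and 3.90 in the L1low libraries. L1high replicates 1 and 3 lay within or just below the L1low range. L1high replicate 2 held 1035 counts, against 376 in the other 5 libraries together, and stood 12.3 times above the mean of these 5 (4.10 ± 0.544 CPM, SD, n = 5). Over all 6 libraries the log2 fold change was -2.16 (SE 0.83, 95% interval -3.97 to -0.35, adjusted p = 0.14). Without L1high replicate 2 it was 0.21 (SE 0.19, adjusted p = 0.57), and without L1high replicate 3 it was -2.63 (adjusted p = 0.029). The direction for PAK3 therefore rested on 1 library.

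That PAK3 was high in 1 L1high library was known before the libraries were searched for such genes. Genes above 1 CPM in only 1 library are not in the table, so the search could not find them. Among 19165 genes whose average log2 CPM reached 0, PAK3 was the 1 gene in L1high replicate 2 at 4 or more times its level in each other library, at 10.3 times the highest of them. The next gene, ENSG00000241073, reached 2.65 times. In the other 5 libraries no gene reached 4 times, and the highest ratio was 3.15, of CD58 in L1high replicate 1. Downward, 1 gene in L1high replicate 2 (MIR6894) and 3 in L1low replicate 3 (ENSG00000241073, MIR6874 and SHISA3) were 4 or more times below each other library. None of the 3 genes in the table within 500 kb of PAK3 had its highest level in L1high replicate 2, and ALG13, the nearest protein-coding one, stood at 26.9, 25.6 and 23.9 CPM in L1high and at 26.8, 24.0 and 23.2 in L1low cells. The genes nearest to PAK3 across the libraries were TTC41P (Euclidean distance 2.13), PTGES3P4 (2.21), ENSG00000226138 (2.27), SERPINE3 (2.29) and ENSG00000256093 (2.31), and none of these was called. Each of them was also highest in L1high replicate 2, though by less, and since the distance is not scaled, the size of the PAK3 value there sets it. The summed neural markers were at 161 CPM in L1high replicate 2, the lowest of the 6 libraries. ENO2 (105 CPM) and TUBB3 (51.3) made up most of that sum, so it tells little of MAP2 (2.97) and GAP43 (2.19). A link of these markers to the PAK3 level was not tested. L1CAM was at 69.8 CPM there, the lowest of the L1high libraries.

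**Figure D4:**
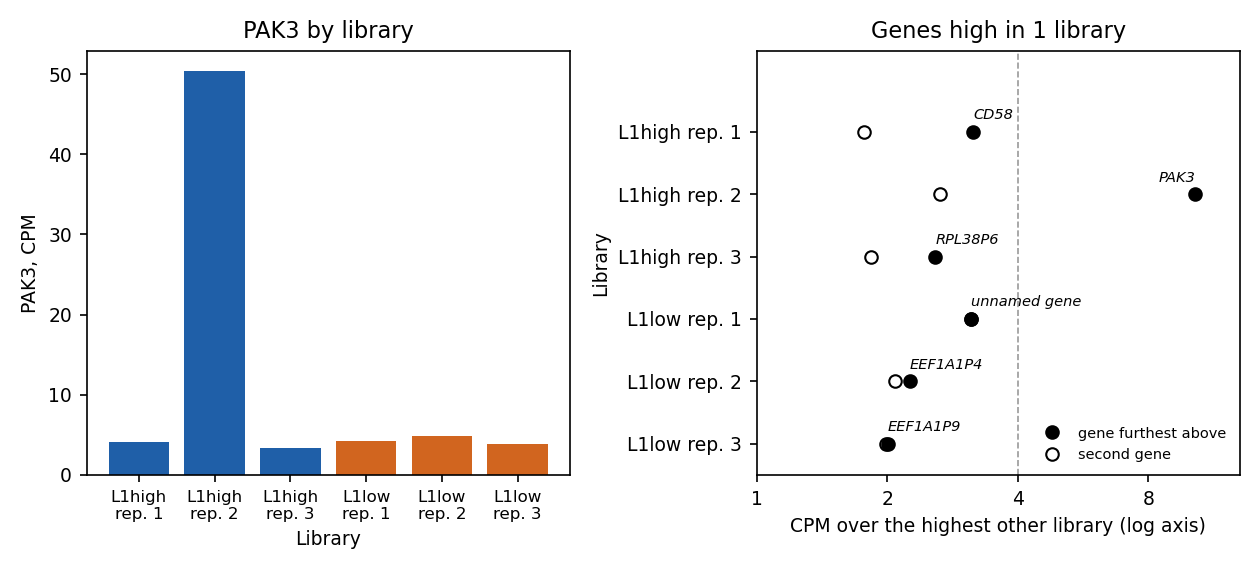
Left, PAK3 level in CPM in each of the 6 libraries. Right, for each library, the highest and second highest ratio of any gene to its highest level in the other 5 libraries, over 19165 genes, where PAK3 reaches 10.3 in L1high replicate 2 and no other gene exceeds 3.15; both genes of L1low replicate 1 lie at 3.12 and cover each other.

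The partners of these kinases were read from 4 lists of 73 genes, of which 67 were in the table. Of these, 11 were called higher and 3 lower in L1low cells, 53 were not called, and 38 did not overlap between the groups, beside 4.58% called higher, 3.37% called lower and 28.8% without overlap among all genes. FRK, a Src-related kinase, was not called (log2 fold change 0.26, adjusted p = 0.28). Of 11 regulators of Src kinases, 2 were called, both lower (3.37% of all genes), and the median log2 fold change was 0.06. PAG1, a membrane adaptor that brings CSK to Src kinases, stood at 26.4, 26.0 and 21.4 CPM in L1high and at 12.4, 11.9 and 9.995 in L1low cells. The groups lay far apart, and the log2 fold change of PAG1 was -1.11 (SE 0.12, adjusted p = 0.00019), close in size to that of FYN. MATK, a CSK-related kinase, fell by 0.48 on the log2 scale (adjusted p = 0.017), and over 5 libraries, without L1high replicate 3, was not called (-0.39, adjusted p = 0.051). CSK itself was not called (0.06, 95% interval -0.10 to 0.22, adjusted p = 0.65).

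Of 30 focal adhesion genes, 10 were called higher and none lower in L1low cells (4.58% and 3.37% of all genes), 23 were above 0, and the median log2 fold change was 0.22. The 10 were TNS1, NEDD9, PTK2B, TNS3, SHC1, ZYX, TNS4, PXN, TGFB1I1 and DOCK1. Of the 7 below 0, LPXN (-0.56, adjusted p = 0.17) and FERMT2 (-0.31, adjusted p = 0.063) had an unadjusted p under 0.05 in edgeR. Of all 19467 genes tested, 4541 met that limit in either direction. TNS1, a tensin that links integrins to actin, stood at 14.6, 12.0 and 13.2 CPM in L1high and at 37.4, 39.6 and 37.8 in L1low cells, with a log2 fold change of 1.53 (SE 0.10, adjusted p = 4.7e-06). NEDD9, a scaffold of the p130Cas family that FAK and Src phosphorylate, had the lowest level per length of the 10 and rose from 2.69, 3.70 and 2.44 CPM to 8.48, 6.91 and 7.62. Its log2 fold change was 1.37 (SE 0.18, adjusted p = 0.00068). In both genes the lowest L1low library lay well above the highest L1high library. The paxillin gene PXN, a main FAK substrate, rose by 0.40 on the log2 scale (adjusted p = 0.0062), while BCAR1, the gene of p130Cas, had a log2 fold change of 0.295 and was not called (adjusted p = 0.12). PXN, SHC1, ZYX and DOCK1 each overlap genes counted on the other strand, and how the counting used strand is not given in the sources used here, so their reads may include those of the overlapping gene. SHC1 and ZYX also overlap genes on their own strand, PYGO2 and MIR6892, and PYGO2 was itself called higher (log2 fold change 0.39, adjusted p = 0.0080). On the other strand, PXN-AS1 over PXN (0.37, adjusted p = 0.0063) and ENSG00000271380 over SHC1 (0.60, adjusted p = 0.00035) were called higher as well. EPHA1 over ZYX and ENSG00000223528 and ENSG00000232935 over DOCK1 were not called.

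Of 27 genes around the PAKs, 25 were in the table (PAK5 and RHOJ were absent). Of these 1 was called higher and 1 lower, beside 4.58% and 3.37% of all genes, and 23 were not called. The groups did not overlap in 10 of them, beside 28.8% of all genes, and the median log2 fold change was 0.05. LIMK2, a kinase that phosphorylates cofilin, stood at 55.6, 54.2 and 60.5 CPM in L1high and at 81.0, 88.5 and 92.1 in L1low cells (log2 fold change 0.62, SE 0.08, adjusted p = 0.00051). RHOV, a GTPase of the CDC42 family that binds PAKs, stood at 528, 506 and 552 CPM in L1high and at 313, 348 and 345 in L1low cells (log2 fold change -0.66, SE 0.07, adjusted p = 9.8e-05). Neither gene overlapped between the groups, and they moved in opposite directions.

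**Figure D5:**
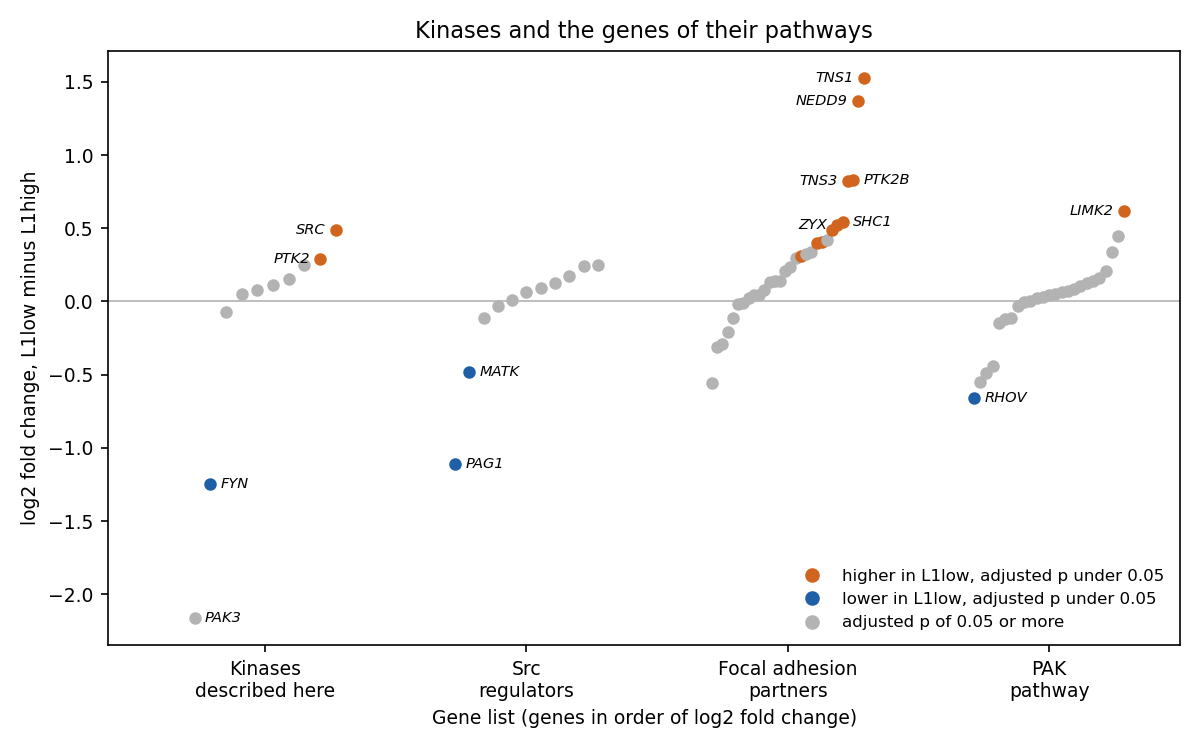
Log2 fold change, L1low minus L1high, of the 10 kinases and of the genes in the table from the lists of Src regulators, focal adhesion partners and PAK pathway genes, with 1 point per gene in order of its value and colour for the adjusted p and direction. Called focal adhesion genes all lie above 0, up to 1.53 for TNS1, while PAG1, MATK and RHOV are called lower.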

How the data were processed

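The authors sequenced stranded mRNA libraries of sorted L3.6pl cells, used BWA to align the reads to GRCh38, and took gene models for counting from Ensembl release 94. The submitters' processing notes name featureCounts, DESeq2, hg38 and GRCh38.p13, and the strand and multi-mapping options are not given in the sources used here. The deposited values are raw read counts per gene. Each of the 19469 genes is above 1 CPM in 2 or more libraries, and genes of lower level were not analysed here. No other value columns were left unused.

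From the counts, L1low was compared with L1high over all 6 libraries in R 4.3.3 with edgeR 4.0.16 (TMM factors, filterByExpr, quasi-likelihood test, Benjamini-Hochberg adjustment over 19467 genes, calls at an adjusted p under 0.05). Log2 fold changes are L1low minus L1high. CPM were TMM-scaled, and log2 CPM used a prior count of 2. Adjusted p-values in the text come from this test unless said otherwise. Lengths and coordinates came from GENCODE release 44, which matched 19344 identifiers. The common biological coefficient of variation was 0.0926, and the median standard error of the 10 kinases' log2 fold changes was 0.09.

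The kinases and the gene lists were chosen with earlier results of these data known. Genes named are the kinases, every called gene of the 4 lists, with values for the 3 largest changes of a list, genes nearest in pattern or within 500 kb of PAK3 and FYN, overlapping genes and pseudogenes, and L1CAM. The values of FRK, CSK, BCAR1, PXN, LPXN, FERMT2, CD58, ENSG00000241073, MIR6874, MIR6894 and SHISA3 and the named markers and absent genes are beyond this rule. Their choice followed a look at the values.

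Alternatives were each library left out, a block on the replicate number, DESeq2 1.42.0, the exact test of edgeR, scaling by RLE, by upper quartile or by library size, all genes without a filter, and a minimum of 10 counts in every library. No pair of libraries agreed within sampling noise.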

Additional observations from a re-analysis of the deposited data

How the results depend on the processing

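Over the alternatives 8 kinases kept their direction, and FYN and SRC kept their calls. The direction changed for PAK2 (-0.0085 without L1high replicate 3, up to 0.19 with other libraries left out) and PAK3 (0.21 without L1high replicate 2, down to -2.65 with others left out). With single libraries left out, the number of genes called ran from 627 (without L1low replicate 2) to 1473, against 1548 over all libraries, and it was 674 without L1high replicate 1. The number of kinases called ran from 2 to 4 and that of pathway genes from 11 to 15, against 14. PAK1 was called by edgeR's exact test (adjusted p = 0.036), which called 2075 genes in all. DESeq2 gave PAK3 a log2 fold change but no adjusted p. With other scalings PAK3 stood at 49.99 to 50.4 CPM in L1high replicate 2, a check chosen after the data were seen. The cause of these changes was not tested. The SE of PAK3 was 0.83 over all libraries and 0.19 without L1high replicate 2.

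Whether the replicate numbers pair the libraries was not settled. Deviations from the group means correlated at 0.12, 0.097 and 0.29 between libraries of the same number. Between libraries of different number the correlations ran from -0.20 to 0.11, and L1high replicate 2 was nearest L1low replicate 1 (0.11). With the replicate number as a block, 2363 genes were called (1220 higher and 1143 lower), and 5 kinases, with PAK1 (0.25, adjusted p = 0.037) and PAK3 (-1.47, adjusted p = 0.049) beside FYN, SRC and PTK2.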
